A study of Mus musculus with 9 samples.

Results

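Ras genes and the proteins that switch them on and off were examined in LSKs, the Lin−Sca1+Kit+ bone marrow fraction that holds haematopoietic stem cells and early progenitors. The 9 genes were chosen by name, with earlier results of these data known. They are the small GTPases Nras, Hras, Rras and Rras2, the exchange factors Sos1, Rasgrp1 and Rasgrp2, and the GTPase-activating proteins Nf1 and Rasa1. They are 9 of 24060 named genes in the count table, and all 9 were among the 13355 genes with enough counts to be tested.

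RNA was sequenced from 3 control, 2 NHD13 and 4 NHD13/MSI2 libraries. Donor marrow came from C57BL/6 mice (control), from mice with a NUP98-HOXD13 transgene under the Vav promoter (NHD13), or from such mice that also carried MSI2 at the Col1A1 locus under a doxycycline-responsive promoter, with rtTA at ROSA26 (NHD13/MSI2). NUP98-HOXD13 is a fusion found in myeloid malignancy, and mice that carry it develop a myelodysplastic syndrome. In each group the marrow went into lethally irradiated CD45.1 hosts, and CD45.2 donor LSKs were sorted after 3 months of doxycycline feeding, which the series' design does not limit to a group. The labelled age is 4 months. The comparison asks how the level of each gene differs with NHD13 and with the addition of MSI2. The labels number the libraries as replicates without naming separate mice, so the p-values measure the spread between these libraries, which may be technical in part. The library names of the control replicates carry the words Bulk (replicate 1) and MPP and HSC (replicates 2 and 3), although all are labelled LSK.

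A Ras protein is active while it holds GTP and inactive once the GTP is cleaved to GDP. Exchange factors load GTP, GTPase-activating proteins speed its cleavage, and active Ras passes signals from growth factor receptors to the Raf and MAP kinase cascade and to phosphoinositide 3-kinase. Blood cells carry Ras mutations or a loss of NF1 in several myeloid diseases, among them juvenile myelomonocytic leukaemia.

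Total counts per library ranged from 19242153 to 23013493. Values are given as CPM, counts scaled to library size with TMM factors, which run from 0.785 in NHD13/MSI2 replicate 4 to 1.087 in control replicate 3. Hoxd13, the mouse counterpart of the gene at the 3′ end of the fusion, had 0 counts in the 3 control libraries and 13 to 25 counts in the 6 others. The libraries labelled NHD13/MSI2 had no more Msi2 (122 ± 79.5 CPM, SD, n = 4) than NHD13 (125 ± 19.9, SD, n = 2) or control (268 ± 46.4, SD, n = 3), and whether reads of the induced MSI2 fall on this row is not given in the sources used here, so every direction below rests on the label. All 5 LSK markers (Kit, Ly6a, Cd34, Flt3 and Ptprc) were detected in every library, with summed CPM of 4612 to 5054 in control, 2651 to 3146 in NHD13 and 2569 to 3423 in NHD13/MSI2. Within the list, relative to control in NHD13/MSI2, Cd34 and Flt3 fell (log2 fold changes of −1.07 and −2.01, adjusted p = 0.00457 and 0.00497), Kit was at −0.76 and Ly6a at 1.60, short of the threshold. Cd34 also fell in NHD13 over control (−1.80, adjusted p = 0.00572, edgeR's quasi-likelihood test). Ly6a was at 375, 254 and 312 CPM in NHD13/MSI2 replicates 1 to 3, 98.6 CPM in replicate 4 and 79.3 to 89.8 CPM in control. Without replicate 4, 1 of the 5 markers was called higher over control (7.28% of all tested genes) and 2 lower (8.25%). Over NHD13, 1 was called higher in that fit (1.59%) and 0 lower (3.27%). NHD13/MSI2 replicate 4 stands apart from the other 8 libraries, with 474 of 10972 genes (4.32%) over 2 times the highest of them, against 2 to 164 genes in any other library. Results that rest on it are given with and without it. In sorted bulk cells, fewer cells of a type and less RNA per cell cannot be told apart.

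In the libraries labelled NHD13/MSI2, Rasgrp2 rose and Rras2 fell relative to control, and the 7 other genes did not pass the threshold in any comparison. Rasgrp2 was 2.24-fold higher and Rras2 was 13.4-fold lower. These were 2 of 9 genes at an adjusted p under 0.01, against 11% of all tested genes (quasi-likelihood test of edgeR, p adjusted by Benjamini-Hochberg over all tested genes, as for each adjusted p below). With Sos1 added, 3 of the 9 had an unadjusted p under 0.05 there, against 32.8% of all genes. In NHD13/MSI2 over NHD13, 0 of the 9 were called by edgeR against 3.17% of all genes, with 2 (Rasgrp2 and Rras2) at an unadjusted p under 0.05, against 21.7%. In NHD13 over control, 0 were called against 1.03% of all genes, with 0 at an unadjusted p under 0.05, against 13.5%. DESeq2 called 2 of the 9 over control, 1 (Rras2) over NHD13 and 0 in NHD13 over control, against 18.1%, 9.47% and 4.12% of the genes to which it gave an adjusted p. At an adjusted p under 0.05 edgeR called the same numbers, against 20.6%, 8.81% and 2.89% of all genes. A joint test of the 3 groups called 2, Rasgrp2 (adjusted p = 0.00689) and Rras2 (adjusted p = 0.00852), against 8.9% of all genes. Both joint calls were lost (0 of 9) without any 1 of the control replicates or of NHD13/MSI2 replicates 1 to 3. The median log2 fold change of the 9 genes was 0.30 over control and −0.11 over NHD13, and that of all tested genes was −0.011 and −0.028.

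**Figure D1:**
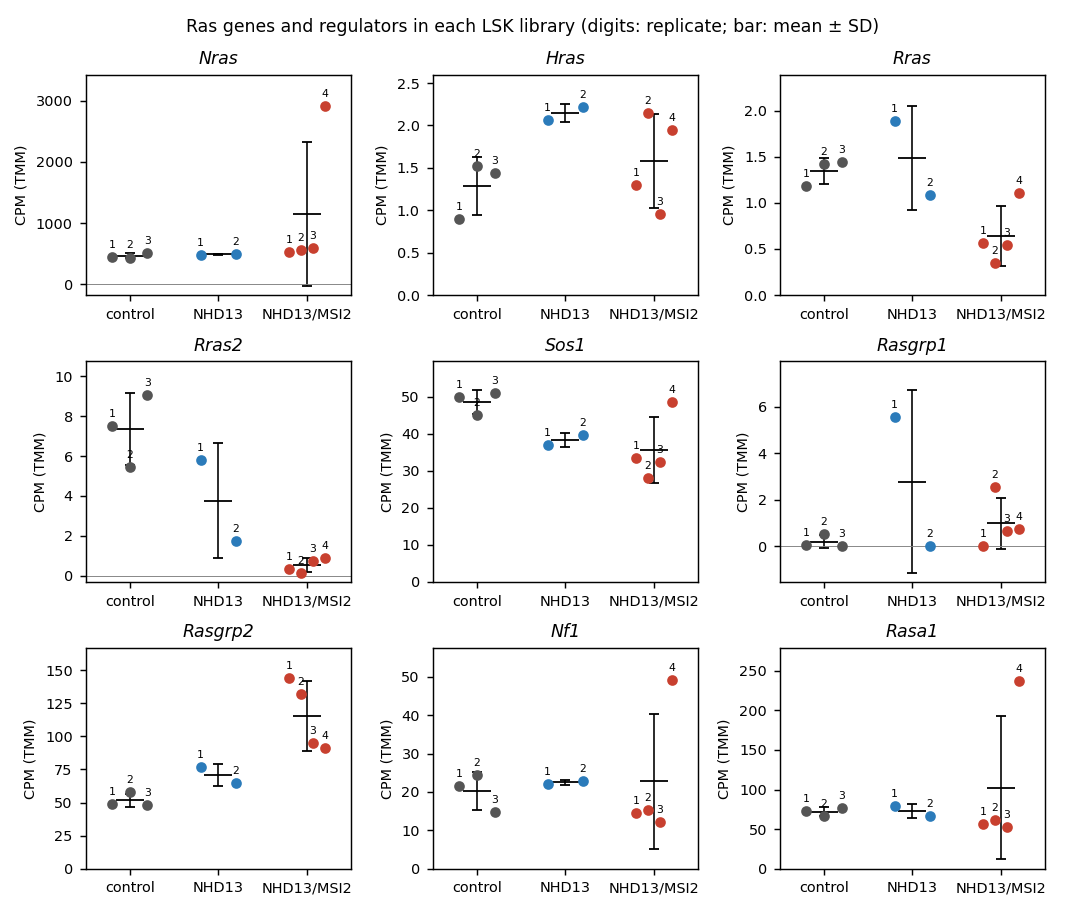
TMM-normalized CPM of the 9 genes in each library, on a linear axis for each gene. Points are libraries with their replicate number, the bar is the group mean and the whiskers are ± SD (n = 3, 2 and 4). NHD13/MSI2 replicate 4 is far above the other libraries for Nras (2914 CPM), Rasa1 (237 CPM) and Nf1 (49.1 CPM), while Rras2 and Rasgrp2 separate NHD13/MSI2 from control.

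Nras encodes N-Ras, the Ras protein most often mutated in human myeloid neoplasms. It is on chromosome 3 (103058285 to 103067914, plus strand; GRCm38, GENCODE M21, as for all positions here). Nras had the highest level per length of the 9 genes, 87.0 CPM per kb of exon in control. Next came Rasa1 (9.82), Sos1 (4.59), Rasgrp2 (4.17), Rras2 (2.07), Nf1 (1.28), Rras (1.20), Hras (0.344) and Rasgrp1 (0.0335). Among neighbours in this order, the control libraries overlapped for Sos1 and Rasgrp2, for Rras2 and Nf1, and for Nf1 and Rras, so those pairs are not separated. The order depends on the length used. Per kb of 1 annotated transcript a gene, Rasgrp2 came second (22.5 CPM per kb in control, since its transcript has 2296 bases against 12384 of exon in all), followed by Rasa1 (15.8) and Sos1 (5.76), and the order of the other genes was as above.

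Nras counts in control replicates 1, 2 and 3 were 443, 438 and 512 CPM. They were 477 and 498 CPM in NHD13 replicates 1 and 2. In NHD13/MSI2 replicates 1, 2 and 3 they were 528, 558 and 594 CPM, and in replicate 4 they were 2914 CPM. All 4 NHD13/MSI2 libraries thus lay above all 5 others, by little in 3 libraries and by far in the fourth. Over control the log2 fold change was 1.31 (SE 0.60, adjusted p = 0.165) and that over NHD13 was 1.24 (SE 0.69, adjusted p = 0.351), neither past the threshold. Without replicate 4 the group mean was 560 ± 33.2 CPM (SD, n = 3), and the log2 fold change was 0.28 over control (adjusted p = 0.0572) and 0.22 over NHD13 (adjusted p = 0.23). NHD13 differed from control by 0.073 on the log2 scale (SE 0.69, adjusted p = 0.995).

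Replicate 4 was 4.90 times the highest of the other 8 libraries in Nras, the rank of 39 among the 10972 genes with a mean of at least 50 counts. Of the 75 Ras pathway genes with that mean (the 9 genes and the pathway lists described below), 8 were over 2 times the highest of the other libraries in replicate 4 (10.7%), beside 4.32% of all such genes. Nras, Rasa1 and Nf1 are members. The 5 others, named after their values were seen, are Braf (5.86 times), the kinase directly activated by Ras, Rap2b (4.62 times), a Ras-like GTPase, the adaptor Grb2 (2.61 times), the exchange factor Sos2 (2.52 times) and Rgl2 (2.06 times), an exchange factor for Ral. Braf was at 172 to 221 CPM in the 8 other libraries and at 1298 CPM in replicate 4. In the opposite direction, Rasal3 was at 58.6 to 96.9 CPM in the 8 libraries and at 18.9 CPM in replicate 4. No other library had any of the 75 genes at over 2 times the rest. Across 10491 genes with a transcript in GENCODE, the log2 ratio of replicate 4 to the mean of the other NHD13/MSI2 libraries was taken. It had a Spearman's rho of 0.29 with transcript length and −0.17 with GC content, a description across genes, which are not replicates. The part of either in the Nras value was not tested. The genes whose log2 CPM were most like those of Nras over the 9 libraries were Tceanc2, the gene listed in date form as 2-Sep, Canx, Gid8 and Kdelr2 (Pearson's r = 0.99 or above for each). All 5 carry the same high value in replicate 4, for example 8085 CPM of Canx against 1317 to 1755 CPM in the rest, so the likeness rests on that library and goes with no test.

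**Figure D2:**
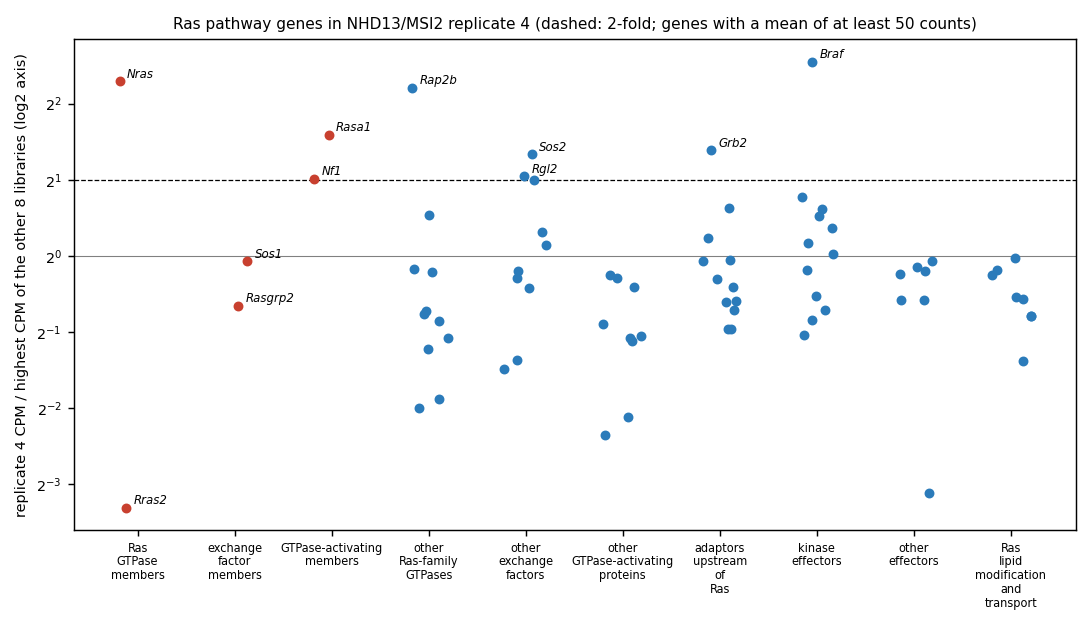
CPM in NHD13/MSI2 replicate 4 over the highest CPM of the other 8 libraries, on a log2 axis, for the Ras pathway genes with a mean of at least 50 counts, by role. Red points are members, blue points are other listed genes, the dashed line marks a ratio of 2. Of 75 genes, 8 lie above it, with Braf (5.86) and Nras (4.90) highest.

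The genes around Nras on chromosome 3 were set beside it. Trim33 was at 44.3 to 60.8 CPM in the other libraries and at 102 CPM in replicate 4. Bcas2 and Sike1, which lie closer to Nras, were not raised there, at 102 and 25.6 CPM in replicate 4 against 110 to 142 and 31.0 to 36.6 CPM in the rest. Syt6 was at 1.81 to 2.49 CPM in the rest and 3.37 CPM in replicate 4.

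Of the 6 neighbours tested and reported here, 2 fell in NHD13/MSI2 relative to control (6.55% of all tested genes were called lower), and 1 of them relative to NHD13 (2.58%). Tspan2, a tetraspanin, was at 31.6, 50.7 and 38.9 CPM in control, 22.4 and 59.3 in NHD13, and 6.21, 7.68, 12.3 and 4.67 in NHD13/MSI2. It fell by 2.38 on the log2 scale relative to control (SE 0.40, adjusted p = 0.003), a call lost without control replicate 2 (0.0147) or 3 (0.0118) or NHD13/MSI2 replicate 1 (0.0117) or 2 (0.0116). It fell by 2.40 on that scale relative to NHD13 (SE 0.43, adjusted p = 0.00972). Leaving out any library but NHD13 replicate 1 or NHD13/MSI2 replicate 3 ended the second call, with adjusted p up to 0.0854 without NHD13 replicate 2. Dennd2c, a Rab exchange factor, had 151, 135 and 162 counts in control, 64 and 33 in NHD13, and 10, 0, 4 and 0 in NHD13/MSI2. Its log2 fold change over control was −5.11 (SE 0.93, adjusted p = 0.00435), and the call was lost without any 1 control library or without NHD13/MSI2 replicate 3, with adjusted p up to 0.0186 without control replicate 3. Both neighbours were low in every NHD13/MSI2 library, whereas Nras was above the rest in each.

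**Figure D3:**
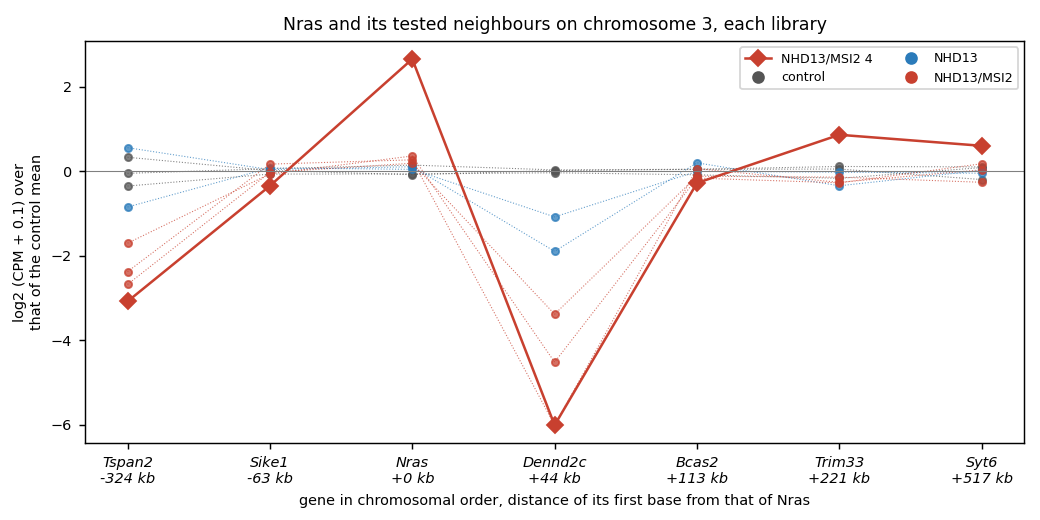
Nras and 6 tested neighbours in chromosomal order, with the distance of each gene's first base from that of Nras. The vertical axis is log2 of (CPM + 0.1) over that of the control mean, each line is a library and the solid line with diamonds is NHD13/MSI2 replicate 4. In replicate 4 Nras (2914 CPM) is far above the other libraries, whereas Tspan2 and Dennd2c are low in all 4 NHD13/MSI2 libraries.

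Hras encodes H-Ras. It is on chromosome 7 (141189105 to 141194005, minus strand), and is the only member whose name needed no realignment in the table. It was at 0.900, 1.52 and 1.44 CPM in control, 2.07 and 2.22 CPM in NHD13, and 1.29, 2.14, 0.950 and 1.95 CPM in NHD13/MSI2, from 21 to 45 counts a library. Both NHD13 libraries were above all control libraries, while NHD13/MSI2 overlapped both groups. The log2 fold change was 0.74 for NHD13 over control (SE 0.55, adjusted p = 0.692), −0.44 for NHD13/MSI2 over NHD13 (SE 0.52, adjusted p = 0.691) and 0.30 for NHD13/MSI2 over control (SE 0.47, adjusted p = 0.712). None passed the threshold.

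Rras encodes R-Ras, a relative of the classical Ras proteins known for its part in integrin-mediated adhesion. It is on chromosome 7 (45017961 to 45021647, plus strand). It was at 1.19, 1.42 and 1.44 CPM in control, 1.89 and 1.09 CPM in NHD13, and 0.569, 0.349, 0.543 and 1.10 CPM in NHD13/MSI2, from 7 to 41 counts a library. All 4 NHD13/MSI2 libraries were below the 3 control libraries, and replicate 4 overlapped NHD13. Its log2 fold change was −1.08 over control (SE 0.54, adjusted p = 0.204) and −1.22 over NHD13 (SE 0.60, adjusted p = 0.281), neither past the threshold.

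Rras and Rras2 are relatives, with coding sequences identical at 63.3% of aligned positions (GENCODE M21). Their longest unbroken run of identical coding sequence is shown because reads longer than it can tell the pair apart, in lower case since no base within it differs.
Rras and Rras2: accatccagttcatccagtccta
It has 23 bases, begins at coding base 136 of Rras and at coding base 91 of Rras2, and is split by an intron in both genes. Read length and the treatment of reads that matched more than 1 gene are not given in the sources used here.

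Rras2 encodes R-Ras2, also called TC21, which resembles the classical Ras proteins in its downstream partners. It is on chromosome 7 (114046782 to 114117781, minus strand). It was at 7.52, 5.46 and 9.04 CPM in control and at 5.80 and 1.73 CPM in NHD13. In NHD13/MSI2 replicates 1 to 4 it was at 0.362, 0.150, 0.769 and 0.909 CPM, which is 7, 3, 17 and 14 counts. The 4 NHD13/MSI2 libraries lay below every library of the other groups, and the 2 NHD13 libraries differed from each other. Rras2 fell by 3.74 on the log2 scale relative to control (SE 0.63, adjusted p = 0.00308). Relative to NHD13 it had a log2 fold change of −2.78 (SE 0.67, adjusted p = 0.0327), short of the threshold, and DESeq2 called it there (adjusted p = 0.00156). The DESeq2 value was the lowest adjusted p over NHD13 among the alternatives tried. The highest, 0.977, came with the names as deposited, where the name Rras2 stands on the counts of another gene. When single libraries were dropped, the log2 fold change of Rras2 over NHD13 ran from −3.36 to −1.63. The call over control was lost without control replicate 1 (adjusted p = 0.0136), control replicate 3 (0.0153) or NHD13/MSI2 replicate 1 (0.0112), with log2 fold changes of −4.06 to −3.41 over all libraries left out in turn. NHD13 had a log2 fold change of −0.96 over control (SE 0.71, adjusted p = 0.687). Markers of several other cell types were also low in NHD13/MSI2. Of the megakaryocyte markers (6 listed, 5 tested), 1 fell over control, Itga2b, and all 5 had negative log2 fold changes. Their summed CPM were 73.9 to 170 in control, 76.5 to 550 in NHD13 and 14.5 to 36.1 in NHD13/MSI2. Erythroid markers (6 listed, 4 tested, Hba-a1 at 0 in every library) summed to 11.4 to 16.1, 2.62 to 11.8 and 0.549 to 3.76 CPM in the same order. Mast cell and basophil markers (5 listed, 4 tested) summed to 18.1 to 67.4, 8.51 to 16.6 and 4.22 to 9.95 CPM, and 2 of them, Cpa3 and Fcer1a, fell in NHD13/MSI2 relative to control. The part of these cells in the Rras2 difference was not tested.

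Among genes with a mean of at least 50 counts, the profiles most like that of Rras2 over the 9 libraries were those of 9530077C05Rik (Pearson's r = 0.99 of log2 CPM), Ccdc112 (0.98) and Tom1l1 (0.98). Tom1l1 was at 27.0 to 46.5 CPM in control, 42.7 and 14.7 CPM in NHD13, and 2.34 to 5.47 CPM in NHD13/MSI2. These values share the libraries and their depth, and were picked from 10972 genes, so no test goes with them.

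The exchange factors differed from each other. Sos1, which receptor tyrosine kinases recruit through Grb2, is on chromosome 17 (80393751 to 80480453, minus strand). It was at 49.97, 44.9 and 51.0 CPM in control, 36.9 and 39.7 CPM in NHD13, and 33.4, 28.0, 32.4 and 48.5 CPM in NHD13/MSI2. Both NHD13 libraries and NHD13/MSI2 replicates 1 to 3 were below all control libraries, and replicate 4 was among the controls. The log2 fold change of NHD13/MSI2 over control was −0.45 (SE 0.19, adjusted p = 0.131), and that of NHD13 over control was −0.34 (SE 0.23, adjusted p = 0.63). Without replicate 4 Sos1 fell by 0.63 on the log2 scale relative to control (SE 0.12, adjusted p = 0.00537), which makes 3 of the 9 genes called in that fit, against 15.5% of all genes. When single libraries were dropped, the adjusted p of Sos1 over control ran from 0.00537, without NHD13/MSI2 replicate 4, to 0.311, without control replicate 3. The value of 0.00141 under the names as deposited belongs to the counts of another gene. NHD13/MSI2 differed from NHD13 by −0.11 (SE 0.22, adjusted p = 0.833).

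Rasgrp1 is the diacylglycerol-responsive exchange factor best known from T cell receptor signalling. It is on chromosome 2 (117279993 to 117343001, minus strand). It had 1, 11 and 0 counts in control, 121 and 0 counts in NHD13, and 0, 51, 14 and 11 counts in NHD13/MSI2, so each group held a library at 0 and the groups overlapped. A library with 0 counts allows up to 3, that is 0.120 to 0.155 CPM in those libraries. The log2 fold change was 3.90 for NHD13 over control (SE 2.07, adjusted p = 0.495), and the standard errors of the 2 other comparisons were 1.75 and 1.85. Without NHD13 replicate 1 the first of these was −4.96 (adjusted p = 0.731). The 2 libraries with the most Rasgrp1 also had the most counts of the T cell receptor chain Cd3e, with 7 in NHD13 replicate 1, 14 in NHD13/MSI2 replicate 2 and 0 in the other 7 libraries. NHD13 replicate 1 had 15 counts of Cd3g, 31 of Cd8a and 73 of Cd2, against at most 3, 12 and 9 in any other library. Cd4 and Cd3d were not highest in that library. Cd4 had 94 counts in NHD13 replicate 1 against 222 in NHD13 replicate 2 and 162 in control replicate 3, and Cd3d had 4 against 7 in control replicate 2. Over the whole list of 7 T cell markers, of which 3 were tested, summed CPM were 38.0 to 50.5 in control, 203 and 203 in NHD13 and 51.0 to 86.7 in NHD13/MSI2. Most of that sum was Lck, at 36.1 to 44.1, 192 to 193 and 48.4 to 83.8 CPM in these groups. The part of T cells in the Rasgrp1 counts was not tested.

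Rasgrp2, or CalDAG-GEFI, is a calcium-responsive exchange factor that acts mainly on Rap1 and is known for its role in platelet and neutrophil adhesion. It is on chromosome 19 (6399340 to 6415216, plus strand). It was at 49.3, 57.6 and 47.9 CPM in control, 76.8 and 64.8 CPM in NHD13, and 144, 132, 95.2 and 91.0 CPM in NHD13/MSI2. The 3 groups did not overlap, with control lowest and NHD13/MSI2 highest. Rasgrp2 rose in NHD13/MSI2 over control (log2 fold change 1.16, SE 0.19, adjusted p = 0.00294), higher in 4 of 4 libraries. Over NHD13 its log2 fold change was 0.71 (SE 0.22, adjusted p = 0.0863), and that of NHD13 over control was 0.46 (SE 0.22, adjusted p = 0.441), neither past the threshold. The call over control was lost without control replicate 1 (adjusted p = 0.0175), 2 (0.0105) or 3 (0.0193), and the log2 fold change stayed between 1.05 and 1.27 over all libraries left out in turn. Its adjusted p over control spanned 7.68e-07 (DESeq2) to 0.0193 across the settings tried.

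Marker lists of other cell types were set beside Rasgrp2. Neutrophil markers (6 listed, 6 tested) summed to 2143 to 3976 CPM in control, 3131 to 4375 in NHD13 and 8394 to 14329 in NHD13/MSI2. Mpo, which granulocyte progenitors also express, carried that sum, at a mean of 1549 CPM in control and 10791 CPM in NHD13/MSI2, and was the only one of the 6 to rise over control (log2 fold change 2.80, adjusted p = 0.000254). The 5 others had negative log2 fold changes, −0.39 for Elane and −1.88 to −1.71 for S100a8, S100a9, Ltf and Ngp, none past the threshold. B cell markers (7 listed, 7 tested) summed to 46.5 to 58.7, 83.5 to 129 and 262 to 448 CPM. Most of that sum was Cd79a (means of 1.25 CPM in control and 184 CPM in NHD13/MSI2) and Cd79b (47.2 and 151 CPM), which rose over control with Pax5. Ebf1, Vpreb1 and Ms4a1 had log2 fold changes of −2.53, −0.27 and −0.080, none past the threshold. Megakaryocyte markers were lower in NHD13/MSI2 than in any other library, as given above. Their part in the Rasgrp2 difference was not tested. The profiles most like that of Rasgrp2 over the 9 libraries were those of Tfeb, Arpc2 and Ftl1 (Pearson's r = 0.97 for each), again with no test.

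The values of both GTPase-activating proteins depended on replicate 4. Nf1 encodes neurofibromin, the tumour suppressor lost in neurofibromatosis, and is on chromosome 11 (79339693 to 79581612, plus strand). It was at 21.6, 24.4 and 14.9 CPM in control, 21.98 and 23.0 CPM in NHD13, and 14.6, 15.3, 12.2 and 49.1 CPM in NHD13/MSI2. Replicates 1 to 3 of the last group were below NHD13 and replicate 4 was above every other library. Over control its log2 fold change was 0.16 (SE 0.47, adjusted p = 0.848) and that over NHD13 was 0.016 (SE 0.53, adjusted p = 0.993). Without replicate 4 these became −0.53 (adjusted p = 0.0875) and −0.67 (adjusted p = 0.0901), which turns the direction without a call.

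Rasa1 encodes p120 RasGAP, which binds activated receptors through its SH2 domains, and is on chromosome 13 (85214780 to 85289130, minus strand). It was at 72.5, 66.0 and 77.2 CPM in control, 78.9 and 66.2 CPM in NHD13, and 56.3, 61.7, 53.3 and 237 CPM in NHD13/MSI2. Replicates 1 to 3 were below all libraries of the other groups, and replicate 4 was 3.01 times the highest of the rest. The log2 fold change over control was 0.51 (SE 0.50, adjusted p = 0.538) and that over NHD13 was 0.49 (SE 0.58, adjusted p = 0.689). Without replicate 4 both became −0.33, with adjusted p of 0.0568 over control and 0.119 over NHD13. Nf1 and Rasa1 thus shared with Nras a raised value in replicate 4, but not the position of the other 3 NHD13/MSI2 libraries. Those were above both other groups for Nras and below both for Rasa1. For Nf1 they were below NHD13 and overlapped control.

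**Figure D4:**
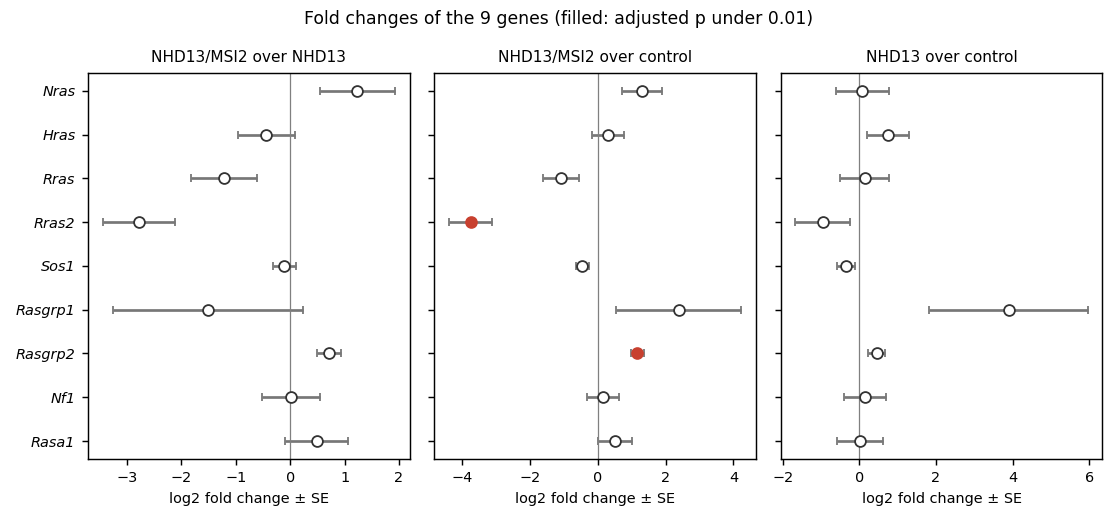
Log2 fold change ± SE of the 9 genes in the 3 comparisons, from edgeR's quasi-likelihood fit of all 9 libraries. Filled points passed an adjusted p under 0.01, which were Rasgrp2 (1.16) and Rras2 (−3.74) in NHD13/MSI2 over control. The panels have different horizontal ranges, and the standard error of Rasgrp1 is the widest.

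By the order of the libraries alone, 2 of the 9 genes were higher in every NHD13/MSI2 library than in either NHD13 library (Nras and Rasgrp2) and 1 was lower in every such library (Rras2), against 13% and 16.9% of all tested genes. Relative to control, 2 were higher in every library (Nras and Rasgrp2) and 2 lower (Rras and Rras2), against 15.3% and 20.4%. In NHD13 relative to control, 2 were higher in both libraries (Hras and Rasgrp2) and 1 was lower (Sos1), against 18.9% and 18.5%.

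Around the 9 genes, 81 further genes of the Ras pathway were listed by role, and 78 were tested. In NHD13/MSI2 over control 4 rose (4.49% of all tested genes were called higher) and 2 fell (6.55% were called lower). In NHD13/MSI2 over NHD13 0 were called by edgeR, with 17 at an unadjusted p under 0.05 (21.7% of all genes had one), and in NHD13 over control 1 rose (0.824% were called higher and 0.21% lower). Without NHD13/MSI2 replicate 4, 7 rose and 2 fell over control, against 7.28% and 8.25% of all tested genes in that fit. Over NHD13, 3 rose and 0 fell by edgeR, against 1.59% and 3.27%, and 0 of the 9 members were called, against 4.86%. In NHD13 over control 1 rose, against 1.37%. The median log2 fold change of the 78 genes in NHD13/MSI2 was 0.20 over control and 0.012 over NHD13.

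Of 11 other exchange factors, 2 rose over control, both of the RasGRF type, which respond to calcium and calmodulin and are known mainly from the brain. Rasgrf2 had 9, 0 and 0 counts in control, 246 and 448 in NHD13, and 69, 76, 114 and 121 in NHD13/MSI2. Every library with the NHD13 label was above every control library, and the 2 NHD13 libraries were the highest. Its log2 fold change was 6.99 in NHD13 over control (SE 1.04, adjusted p = 0.00781) and 5.27 in NHD13/MSI2 over control (SE 0.95, adjusted p = 0.00423). With 2 control libraries at 0 the size is uncertain. It ran from 6.40 to 11.4 and from 4.69 to 9.71 over all libraries left out in turn. The first call was lost without any 1 library other than control replicate 1 or NHD13/MSI2 replicate 4 (adjusted p up to 0.0304). The second was lost without control replicate 2 (0.0164), control replicate 3 (0.0154) or NHD13/MSI2 replicate 3 (0.0102). Rasgrf1 had 0 counts in each control library, 8 and 5 in NHD13, and 9, 11, 20 and 15 in NHD13/MSI2. Against a floor of 3 counts per control library it was at least 5.63-fold higher in NHD13/MSI2 (adjusted p = 0.00484), and the call was lost without any 1 control library or without NHD13/MSI2 replicate 2 or 3 (adjusted p up to 0.0176).

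Of 12 other genes listed under GTPase-activating proteins, 1 fell over control with all libraries. Rasal2 had 94, 39 and 72 counts in control, 28 and 13 in NHD13, and 6, 0, 0 and 1 in NHD13/MSI2, a log2 fold change of −4.86 (SE 1.03, adjusted p = 0.0092). The call was lost without any 1 library other than NHD13/MSI2 replicate 1, with adjusted p up to 0.0393 without control replicate 1. Of the 12 tested Ras-family GTPases, the 12 genes listed as adaptors, the 14 listed as kinase effectors and the 9 of Ras lipid modification and transport, none was called in any of the 3 comparisons with all libraries. Without replicate 4, Cbl of the adaptor list (0.70, adjusted p = 0.00741) and the depalmitoylase Lypla2 (0.63, adjusted p = 0.00669) rose over control. From the list of GTPase-activating proteins, Rasa4 rose (0.95, adjusted p = 0.0021) and Spred1 fell (−0.94, adjusted p = 0.00849) over control in that fit. The kinase subunit Pik3cg rose over NHD13 there (1.17, adjusted p = 0.00659). All are log2 fold changes of genes named after their values were seen. With all libraries the medians over control of the 4 lists with no call were −0.079, 0.14, 0.15 and 0.24 on the log2 scale.

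Of 8 other effectors, 2 rose and 1 fell over control. Rin2 and Rin3 bind active Ras and load GTP onto Rab5 at early endosomes. Rin2 was at 6.64 to 8.91 CPM in control, 13.7 and 7.11 CPM in NHD13, and 24.4, 24.5, 37.1 and 31.3 CPM in NHD13/MSI2 (log2 fold change over control 1.96, SE 0.29, adjusted p = 0.00147). Rin3 was at 97.4 to 105 CPM in control, 101 and 151 CPM in NHD13, and 242, 250, 297 and 198 CPM in NHD13/MSI2 (log2 fold change over control 1.30, SE 0.19, adjusted p = 0.00141). All NHD13/MSI2 libraries were above all others for both. Leaving out control replicate 3 took both just past the threshold, with adjusted p of 0.0109 and 0.0105, and leaving out control replicate 2 did so for Rin2 (0.0101). Mllt4, which encodes afadin, a junction protein that binds Ras and Rap1, had 693, 467 and 584 counts in control, 154 and 104 in NHD13, and 0, 24, 7 and 50 in NHD13/MSI2. Its log2 fold change over control was −4.41 (SE 0.92, adjusted p = 0.00868), and the call was lost without any 1 library other than NHD13/MSI2 replicates 1 and 4 (adjusted p up to 0.0337). Without NHD13/MSI2 replicate 4, Rin3 (log2 fold change 1.07, adjusted p = 0.00758) and Rassf2 (0.86, adjusted p = 0.00659) rose over NHD13, named after their values were seen.

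**Figure D5:**
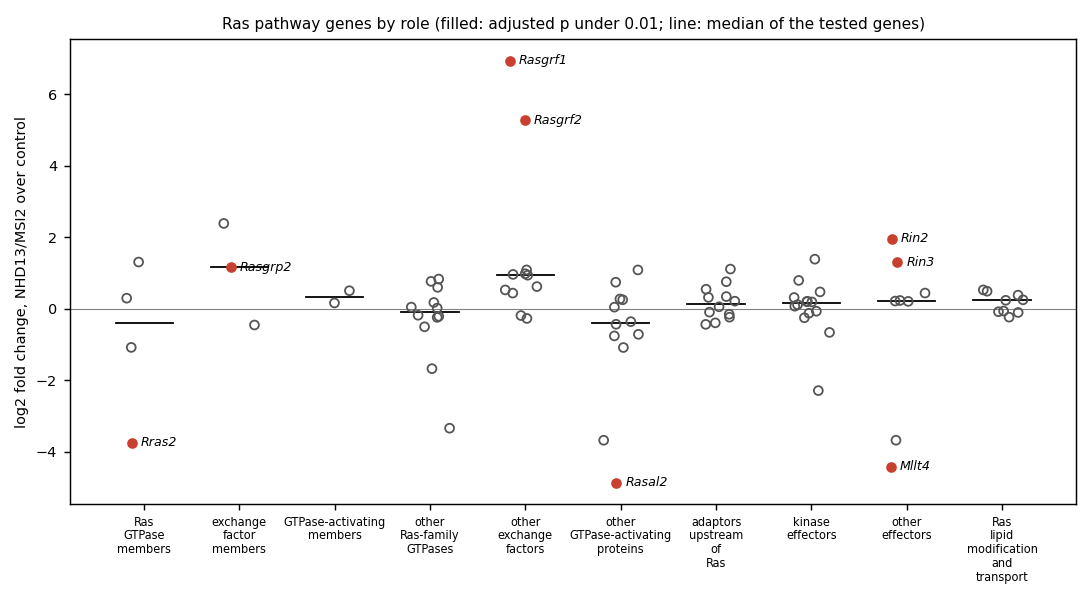
Log2 fold change of NHD13/MSI2 over control for the tested Ras pathway genes by role. Filled points passed an adjusted p under 0.01 and are named, and the line is the median of each list. Outside the 9 genes, 4 rose (Rasgrf1, Rasgrf2, Rin2 and Rin3) and 2 fell (Rasal2 and Mllt4). The height of Rasgrf1 depends on the prior count, since its control libraries are at 0.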

How the data were processed

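RNA-seq counts of LSKs from 3 control, 2 NHD13 and 4 NHD13/MSI2 libraries were analysed. The table deposited by the authors holds raw counts as whole numbers, with 1 row per gene symbol. The submitters' processing notes name STAR, HTSeq, DESeq and the mouse build mm9, with no versions. Symbols after the March genes stand 2 rows too high in the deposited table. They were moved down (11942 names, 8 of the 9 members), since a move of 2 rows gave Xist, an RNA abundant in female cells, a row with 4833 counts on average, against at most 399 counts under the other moves checked. Uty was less clear, at 1835 counts on average with a move of 2 rows and 1656 with a move of 4. Among the March genes 13 rows were left unnamed (0.0253% to 0.0323% of a library).

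Counts were filtered by filterByExpr, TMM-scaled and fitted by edgeR 4.0.16 (quasi-likelihood, R 4.3.3) with all 9 libraries and no block. A gene was called at an adjusted p (Benjamini-Hochberg) under 0.01. The floor for a count of 0 is 3 counts (0.13 to 0.156 CPM before TMM factors, counting error only). Genes with a mean of at least 50 counts served for comparisons of profiles (log2 CPM, prior count 2). Positions and sequences are from GENCODE M21 (GRCm38), not the authors' build. Members are all named. Other pathway genes are named if called, at most 4 a list, and the tested neighbours of Nras, the 5 genes most like Nras and the 3 most like each called member. Members and lists were chosen with earlier results of these data known. The fit was tested on simulated counts first. The alternatives tried were DESeq2 1.42.0, a robust fit, RLE factors, only the 2 groups compared, the replicate block, a threshold of 0.05, either no filter or a minimum mean of 50 counts, the deposited names, and each library left out. Some listed genes are not reported here and were left out of the lists' counts. Protein sequences were not used here.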

Additional observations from a re-analysis of the deposited data

Results flagged for a closer look

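In 4 of the 21 genes checked (the members, the called pathway genes and the tested neighbours of Nras), 1 of the 4 NHD13/MSI2 libraries lay far from the other 3. The measure was the gap from the farthest library to its nearest neighbour as a share of the group's range, judged by Dixon's limit for groups of 4, and chance alone gives about 1 such gap in 20 groups. It was 0.972 for Nras, 0.954 for Rasa1, 0.916 for Nf1 and 0.919 for Trim33. In each the library was NHD13/MSI2 replicate 4 and its value was the highest. Only these 21 genes were checked so, and the share of all genes past the limit is not known. This library stands apart over all genes as well. Of 10972 genes with a mean of at least 50 counts, 474 (4.32%) were over 2 times the highest of the other 8 libraries. In 547 (4.99%) it was under 0.5 times the lowest of them. Why this library differs was not tested.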

How the results depend on the processing

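The 2 calls among the 9 genes over control were made under every alternative that kept all libraries, other than the names as deposited, where 8 of the 9 names stand on counts of other genes. Over NHD13, Rras2 alone was called with DESeq2 (1 of 9, against 9.47% of all genes) and at an adjusted p under 0.05 (1 of 9, against 8.81%). With each library left out in turn, 0 to 3 of the 9 were called over control, 0 to 2 in the joint test, and 0 in the other comparisons. With the names as deposited, 1 of 9 was called over NHD13, and 1 in NHD13 over control.

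Directions that turned with 1 library left out had small values or rested on 1 library. These log2 fold changes ran from −0.31 to 0.47 for Rras, −4.96 to 6.73 for Rasgrp1, −0.034 to 0.30 for Nf1 and −0.12 to 0.12 for Rasa1 in NHD13 over control. In NHD13/MSI2 over NHD13 they ran from −0.28 to 0.012 for Sos1, −2.58 to 7.38 for Rasgrp1, −0.67 to 0.22 for Nf1 and −0.33 to 0.71 for Rasa1. Over control they ran from −0.53 to 0.37 for Nf1 and −0.33 to 0.72 for Rasa1. Rasa1 in NHD13 over control was −0.0052 with RLE factors and −0.0055 with DESeq2.

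With the replicate number as a block, replicate 4 has no partner and carries no weight. Nf1 was then −0.53 over NHD13 and −0.51 over control, Rasa1 −0.34 and −0.33, and 203 rather than 423 of all genes were called over NHD13. The block kept 2 members called over control. Deviations of same-numbered libraries from their group means correlated at −0.0716 to 0.194. The deviations of the 2 NHD13 libraries are equal and opposite, so this cannot settle whether the numbers pair the libraries. The block ended the calls of Rasgrf2 (adjusted p = 0.0304 in NHD13 over control and 0.0166 in NHD13/MSI2 over control). It also ended those of Rasgrf1 (0.038) and Rasal2 (0.0185) over control, and of Tspan2 over NHD13 (0.0135). The last call was also lost with RLE factors (0.0101), the robust fit (0.0104) and only the 2 groups compared (0.0478), as were Rasgrf2 in NHD13 over control (0.0289) and Mllt4 (0.0108) with only the 2 groups compared.

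With the names as deposited, the rows of other genes gave, on the log2 scale, Nras −5.19, Rras −0.35, Sos1 1.10, Rasa1 −0.18 and Rasgrf2 −0.95 in NHD13 over control. Over NHD13 they gave Rras 0.60, Rras2 0.12, Sos1 1.22, Rasgrp1 1.21, Rasgrp2 −1.72 and Tspan2 0.22. In NHD13/MSI2 over control they gave Rras 0.25, Sos1 2.32, Rasgrf1 −3.75, Rasal2 0.74, Mllt4 0.34 and Rin3 −3.67.

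Counts over all genes moved by more than 1.5 times in places. In NHD13/MSI2 over NHD13, 423 became 1177 at an adjusted p under 0.05, 1292 with DESeq2, 30 with only the 2 groups compared and 128 to 646 with libraries left out. Over control, 1474 became 2745, 2590 and 647 to 2066 under the first, the second and the last of these. In NHD13 over control, 138 became 386, 602, 83 and 38 to 251. The joint test moved from 1189 to 2472, 2636 and 440 to 1743. Hras, Rras, Rasgrp1 and Rasgrf1 have few counts, and what depth adds to their errors was not tested.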
